A study of Mus musculus with 6 samples.

Results

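Oxidative phosphorylation was followed here through 35 nuclear genes that encode subunits of respiratory complexes I to V and the electron carrier cytochrome c, listed by symbol. Of these, 34 had at least 1 probe set annotated to them alone on the array, and Cox7b had none named. The 34 genes were read by 72 of 45037 probe sets, and 68 of the 72 were bright enough to be tested (mean log2 signal of at least 6.80). Each gene was represented by its brightest probe set, and all 34 of these were tested among 12626 named genes.

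The respiratory chain passes electrons from NADH (complex I) and succinate (complex II) through complex III and cytochrome c to oxygen at complex IV, and complexes I, III and IV pump protons across the inner mitochondrial membrane. Complex V, the ATP synthase, makes ATP from the returning protons. GCN5, encoded by Kat2a, and PCAF, encoded by Kat2b, are closely related histone acetyltransferases. GCN5 is also known to acetylate the coactivator PGC-1alpha, which drives genes of mitochondrial respiration, and thereby to restrain it.

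RNA came from 2 mouse embryonic fibroblast lines, immortalized independently and called lines A and B here. Every array carried the PCAF deletion (PCAF-/-), the controls included, so loss of GCN5 was compared in the absence of PCAF. The cells held a conditional GCN5 allele, were infected with a retrovirus carrying Cre recombinase or with the empty virus, and were selected with puromycin. The 3 GCN5+/- arrays and the 3 GCN5-/- arrays each comprised duplicate RNAs of line A (A1 and A2) and 1 RNA of line B. No array label names its virus. The series' own description gives Cre and vector cells the same genotype, GCN5+/-, so the groups rest on the genotypes in the sample titles. An effect of Cre itself cannot be told apart from loss of GCN5. The duplicates were RNAs of 1 line, so p-values rest largely on their spread, which may be technical. Values by array are given below in the order A1, A2, B, first for the GCN5+/- arrays, called controls, and then for the GCN5-/- arrays. Age and sex of the source embryos were not given in the sources used here.

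The deletion was visible in Kat2a, where the probe set that fell most read log2 signals of 9.31, 10.07 and 11.51 in controls and 7.97, 7.85 and 7.75 in GCN5-/- arrays. Its log2 change was -2.44 ± 0.36 (limma adjusted p = 0.00823). The brightest Kat2a probe set did not pass the test (0.18, limma adjusted p = 0.670), and the Kat2b probe sets lay below the brightness limit. Where these probe sets lie relative to the deleted parts was not given in the sources used here. Median log2 signals of the 6 arrays ran from 7.40 to 7.45. The 3' to 5' log2 ratio of the actin control, a sign of RNA quality, was 0.07 to 0.12 in controls and 0.09 to 0.11 in GCN5-/- arrays. All 10 fibroblast markers were above the brightness limit, and their summed log2 level was 17.15 to 17.30 in GCN5+/- against 17.12 to 17.15 in GCN5-/- arrays. Of the 10, 5 fell with genotype, where 4.77% of all named genes tested fell, with Col1a1 down by 0.35 (limma adjusted p = 0.000666). Summed leukocyte markers read 9.97 to 10.30 and 10.04 to 10.62, with Ptprc and Itgam below the limit. The part of these markers in the results below was not tested.

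Promoters of 27 of the 35 genes were found in RefSeq (GRCm38.p6), 30 promoters in all, each of 250 bases before to 50 bases after a start. Short motifs of factors known for respiratory genes were searched on both strands. The NRF1 motif (nuclear respiratory factor 1; GCGCA and GCGC with any base between them) was present in 8 of the 30 promoters (26.7%), against 4.60% of all 32851 promoters. These 8 belonged to Atp5c1, Atp5o, Ndufa5, Ndufa8, Sdha, Sdhd and Uqcrc1. The ETS motif (CCGGAAG, read by GABP among others) was in 16.7% against 8.86%, YY1 (AAGATGGC) in 6.67% against 2.75%, CRE (TGACGTCA, read by CREB) in 6.67% against 1.79% and the CCAAT box (CCAAT) in 33.3% against 37.4%. A match describes letters only and is no evidence of binding.

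The 250 bases before the start are shown for 4 genes on which the results turn, written 5' to 3' on the gene's strand with matches to these motifs in capitals. Ndufs3 (chr2:90904722-90904971, minus strand) and Atp5b (chr10:128083057-128083306, plus strand) passed the genotype test, Cycs (chr6:50566570-50566819, minus strand) had the largest genotype difference, and Sdhd (chr9:50603850-50604099, minus strand) held both an NRF1 and an ETS match and differed between the lines. Capitals mark an ETS match in Ndufs3, 5 CCAAT boxes on either strand in Atp5b, a CRE and a CCAAT box in Cycs, and an NRF1 and then an ETS match in Sdhd. The printed matches do not overlap one another.
Ndufs3: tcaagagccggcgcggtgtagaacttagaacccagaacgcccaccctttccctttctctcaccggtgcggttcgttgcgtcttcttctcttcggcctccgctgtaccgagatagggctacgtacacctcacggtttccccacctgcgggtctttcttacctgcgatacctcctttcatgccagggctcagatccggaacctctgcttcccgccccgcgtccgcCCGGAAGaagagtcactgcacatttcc
Atp5b: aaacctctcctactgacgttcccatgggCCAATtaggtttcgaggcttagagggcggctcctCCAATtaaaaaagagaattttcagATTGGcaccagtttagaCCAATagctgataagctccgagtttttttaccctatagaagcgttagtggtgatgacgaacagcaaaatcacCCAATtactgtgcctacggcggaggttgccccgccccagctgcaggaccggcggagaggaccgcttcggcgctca
Cycs: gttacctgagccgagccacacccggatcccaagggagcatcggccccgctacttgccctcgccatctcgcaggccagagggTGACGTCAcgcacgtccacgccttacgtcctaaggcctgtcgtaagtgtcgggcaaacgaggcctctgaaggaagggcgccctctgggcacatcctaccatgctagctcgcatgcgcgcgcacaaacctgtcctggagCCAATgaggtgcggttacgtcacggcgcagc
Sdhd: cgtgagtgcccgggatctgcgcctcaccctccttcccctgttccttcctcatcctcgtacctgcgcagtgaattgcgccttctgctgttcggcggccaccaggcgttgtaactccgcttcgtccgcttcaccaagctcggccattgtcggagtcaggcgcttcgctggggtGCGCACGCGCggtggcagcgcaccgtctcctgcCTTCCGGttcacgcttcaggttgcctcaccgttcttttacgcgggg

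Loss of GCN5 left most of these genes close to their control level. In the limma fit with line as a covariate, 2 of 34 genes rose, Ndufs3 and Atp5b, and 0 fell, at an adjusted p under 0.05. The same threshold called 9.86% of all named genes tested, 5.09% higher and 4.77% lower, and 13.6% of the 3284 named genes at least as bright as the dimmest of the 34. Over single probe sets, 3 of the 68 tested rose and 0 fell, against 8.51% of all probe sets called in either direction. At an unadjusted p under 0.05, 10 genes were higher and 0 lower, where 13.6% of named genes were higher and 13.1% lower. The log2 change lay above 0 in 27 of 34 genes, against 51.6% of named genes, and ran from -0.09 to 0.26. This count was 27 with quantile normalization and 29 with median centring. The median change was 0.07, against 0.01 for all named genes. The count of 2 was 4 without either line B array and 0 without any 1 of the line A arrays. With 1 line B array left, the line term fits that array exactly. The genotype change without GCN5+/- B or without GCN5-/- B is therefore the line A difference alone.

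In the fit over both lines, the 95% intervals of the 34 changes of the brightest probe sets together spanned -0.31 to 0.45 on the log2 scale, or 0.809-fold to 1.37-fold. Another Cycs probe set reached 0.55 in the same fit, and the Cycs interval within line A alone was 0.28 to 0.52. In 24 genes the whole interval lay within 0.25 of 0, that is within 1.19-fold of control. The interval lay above 0 in 10 genes and below 0 in 0. Every GCN5-/- array exceeded every GCN5+/- array in 6 genes (Ndufa5, Ndufa8, Ndufa9, Ndufb9, Ndufs3 and Cox7a2), an ordering that 9.49% of named genes showed, and the reverse ordering held in 0 genes, against 8.74%. Higher values in all 3 pairs were seen in 16 genes, against 25.5% of named genes, and lower values in all 3 pairs in 1 gene, against 24.1%.

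**Figure D1:**
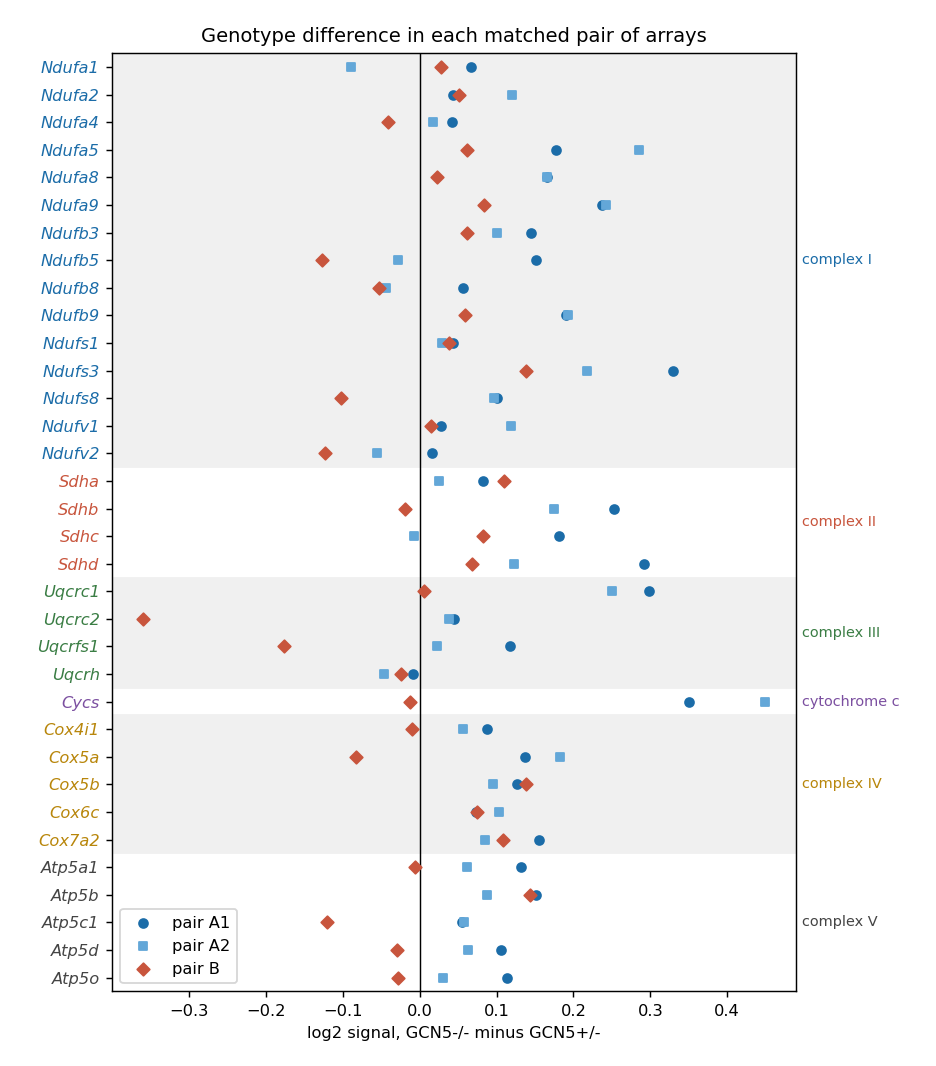
Log2 signal of GCN5-/- minus GCN5+/- (x axis) in pairs A1, A2 and B for the 34 genes (y axis), ordered by complex, each gene by its brightest probe set. The line A pairs lie mostly right of 0, with Cycs the farthest at 0.35 and 0.45, while the line B pair scatters around 0 and reaches -0.36 for Uqcrc2.

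Complex I, which oxidizes NADH, was represented by 15 genes, of which 1 rose and 0 fell, with a median log2 change of 0.05. Ndufs3 encodes a core subunit of the peripheral arm. Its log2 signal was 12.56, 12.61 and 12.69 in controls and 12.89, 12.82 and 12.83 in GCN5-/- arrays. The 3 GCN5-/- values lay above the 3 control values. The log2 change was 0.23 ± 0.06 (SE, n = 3 against 3), or 1.17-fold, with a limma adjusted p of 0.0437. The call was lost with the pairs as a block (limma adjusted p = 0.0619) and without any 1 of the line A arrays (limma adjusted p = 0.118 to 0.176).

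Ndufb9 and Ndufa9, accessory subunits of complex I, were the next in this complex by p. Ndufb9 read 13.33, 13.31 and 13.41 in controls and 13.53, 13.50 and 13.47 in GCN5-/- arrays, a difference of 0.15 ± 0.05 (limma adjusted p = 0.0906). Ndufa9 read 11.90, 11.94 and 12.05 against 12.14, 12.18 and 12.13, a log2 change of 0.19 ± 0.06 (limma adjusted p = 0.115). Neither gene's groups overlapped, yet neither passed the test. Ndufb9 was called without GCN5+/- B (limma adjusted p = 0.0353) or GCN5-/- B (limma adjusted p = 0.0350). Ndufv2, an iron-sulfur subunit of the NADH-oxidizing module, had the lowest change of complex I. It read 13.01, 13.11 and 13.10 against 13.03, 13.05 and 12.97, so the groups overlapped, and the fitted change was -0.05 ± 0.05 (limma adjusted p = 0.583). Ndufv1, which binds NADH, differed by 0.05, and the iron-sulfur subunits Ndufs1 and Ndufs8 by 0.04 and 0.03. Ndufa4, since reassigned to complex IV, differed by 0.01.

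In complex II, succinate dehydrogenase, 0 of 4 genes passed the genotype test and all 4 log2 changes were above 0, with a median of 0.11. Sdhd, a membrane anchor, had the largest, 0.16 ± 0.06 (limma adjusted p = 0.126). Its log2 signal was 12.67, 12.75 and 13.07 in controls and 12.97, 12.87 and 13.14 in GCN5-/- arrays. Line B was the highest array of each genotype, and the groups overlapped. Sdhb, the iron-sulfur subunit, had pair differences of 0.25, 0.18 and -0.02. The flavoprotein Sdha differed by 0.07 over the 3 pairs, and the other anchor, Sdhc, by 0.09. Sdha, the lowest change of complex II, read 12.87, 12.97 and 13.08 in controls and 12.96, 13.00 and 13.19 in GCN5-/- arrays. The other tested Sdha probe set differed by 0.17 (limma adjusted p = 0.108), with pair differences of 0.19, 0.13 and 0.19 and no overlap of the groups.

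Complex III, which passes electrons to cytochrome c, was the complex with the lowest median log2 change, -0.02, and 1 of its 4 changes was above 0. None of the 4 passed the genotype test. Uqcrc1, a core protein, read 12.54, 12.56 and 13.10 in controls and 12.84, 12.81 and 13.10 in GCN5-/- arrays. The line A arrays differed by 0.30 and 0.25 and the line B arrays by 0.01, and the fitted change was 0.18 ± 0.06 (limma adjusted p = 0.125). Uqcrc1 was called without GCN5+/- B (limma adjusted p = 0.0210) or GCN5-/- B (limma adjusted p = 0.0205). Uqcrc2, the other core protein, read 12.10, 12.002 and 12.12 against 12.15, 12.04 and 11.76. The lowest array of the 6 was GCN5-/- B, and the fitted change was -0.09 ± 0.09 (limma adjusted p = 0.613). Without either line B array the Uqcrc2 change was 0.04. The other tested Uqcrc2 probe set was lower in all 3 pairs, by -0.04, -0.12 and -0.18, with a mean of -0.08 in line A. By brightest probe sets Uqcrh, the hinge protein, was the 1 gene of the 34 that was lower in all 3 pairs, by amounts of -0.01, -0.05 and -0.02. Uqcrh read 13.02, 12.93 and 12.78 in controls and 13.01, 12.88 and 12.75 in GCN5-/- arrays. Its other probe set was lower by -0.10, -0.17 and -0.09. Over the 68 tested probe sets 5 were lower in all 3 pairs, 1 of Ndufv2 among them, and 31 were higher.

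Cycs encodes somatic cytochrome c, which carries electrons from complex III to complex IV and, once released to the cytosol, starts caspase activation. Its log2 signal was 12.99, 12.96 and 13.11 in controls and 13.34, 13.41 and 13.09 in GCN5-/- arrays. The line A GCN5-/- arrays lay above all controls and the line B GCN5-/- array lay among the controls. The log2 change of 0.26 ± 0.08 was the largest of the 34 and did not pass the test (limma adjusted p = 0.0919). Of its other tested probe sets, 1 passed at 0.35 ± 0.09 (limma adjusted p = 0.0479), with pair differences of 0.45, 0.46 and 0.14. The remaining probe set did not pass (0.24, limma adjusted p = 0.0530). Cycs passed when its probe sets were averaged (limma adjusted p = 0.0392). It also passed without GCN5+/- B (limma adjusted p = 0.00394) or GCN5-/- B (limma adjusted p = 0.00374). The change was 0.40 in either case, which is the line A difference alone.

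In complex IV, cytochrome c oxidase, 0 of 5 genes passed the genotype test and all 5 log2 changes were above 0, with a median of 0.08. Cox5b read 13.88, 13.88 and 13.70 in controls and 14.01, 13.97 and 13.84 in GCN5-/- arrays. Each pair differed by 0.10 to 0.14, but line B lay lower in both genotypes, so the groups overlapped. The change was 0.12 ± 0.04 (limma adjusted p = 0.0772), and the 5 tested Cox5b probe sets ran from 0.02 to 0.15. Cox7a2 and Cox6c, small subunits of the membrane part, differed by 0.12 and 0.08 (limma adjusted p = 0.141 and 0.159). Cox4i1 and Cox5a, nuclear-encoded subunits around the catalytic core, differed by 0.04 and 0.08.

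In complex V, 1 of 5 genes rose and 0 fell, with a median log2 change of 0.05. Atp5b encodes the catalytic beta subunit. It read 14.28, 14.35 and 14.44 in controls and 14.43, 14.44 and 14.59 in GCN5-/- arrays. Each GCN5-/- array exceeded its own control, although the control of line B was as high as the line A GCN5-/- arrays. The log2 change was 0.13 ± 0.03, or 1.09-fold, with a limma adjusted p of 0.0496. This call was lost with the pairs as a block (limma adjusted p = 0.0653) and without any 1 of the 6 arrays (limma adjusted p = 0.0740 to 0.202). The rotating gamma subunit Atp5c1 read 13.60, 13.55 and 13.64 against 13.65, 13.61 and 13.52, with pair B lower by -0.12 and line A higher by 0.05 and 0.06. Atp5a1 (alpha), Atp5d (delta) and Atp5o (the stalk protein OSCP) differed by 0.06, 0.05 and 0.04.

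**Figure D2:**
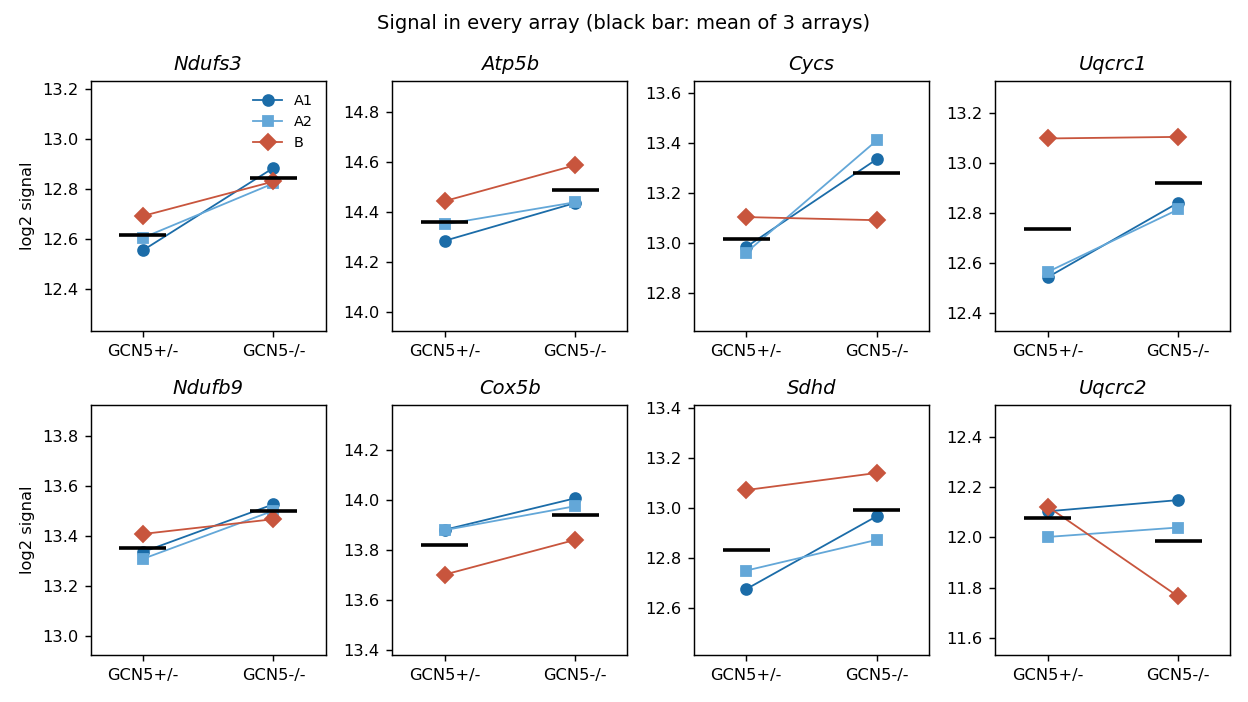
Log2 signal (y axis) of 8 genes in the 3 GCN5+/- and 3 GCN5-/- arrays (x axis), with lines joining the arrays of a pair and a black bar at each mean of 3. Ndufs3 and Ndufb9 show groups that do not overlap, Cycs and Uqcrc1 move in the line A pairs and stay flat in line B, and Uqcrc2 reads 11.76 in GCN5-/- B, below the other 5 arrays.

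The genotype differences lay higher in line A than in line B for most of the genes. In line A, 28 of 34 genes were higher in both pairs, against 39.4% of named genes. In line B, 18 of 34 were higher, against 48.2%. The median over the 34 genes was 0.12 for pair A1, 0.09 for pair A2 and 0.01 for pair B. The change was more positive in line A than in line B for 28 genes, against 53.6% of named genes and 52.9% of those as bright. With quantile normalization this count was 29 and with median centring 30.

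The difference between the lines did not pass the test for any single gene. In the limma fit with a genotype by line term, 0 of 34 genes were called, against 0.0396% of named genes. At an unadjusted p under 0.05 there were 7 genes, all with a change more positive in line A, against 5.39% of named genes in that direction and 9.64% in both. Cycs had the smallest interaction p, with a difference of -0.41 between line B and line A (limma adjusted p = 0.215). Of the 7, 3 were in complex III (Uqcrc1, Uqcrc2 and Uqcrfs1, the Rieske iron-sulfur protein). The others were Sdhb, Cox5a and Atp5c1. Over the 68 tested probe sets, 8 met the same unadjusted threshold. The other, dimmer probe sets had smaller differences between line B and line A in Cox5a (0.01 and -0.07, against -0.24 in the brightest). The same held for Uqcrc2 (-0.10 against -0.40) and Atp5c1 (-0.07 against -0.18). Those of Cycs were -0.25 and -0.32. Uqcrc1, Uqcrfs1 and Sdhb had no other tested probe set. Line B had 1 array of each genotype, so its own spread was not measured.

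Within line A, from the same fit, 4 of 34 genes rose and 0 fell, where 10.8% of named genes were called, 5.77% higher and 5.06% lower. These were Cycs, Uqcrc1, Ndufs3 and Ndufb9. Their changes equal those of the fits over both lines without a line B array, so the calls in those fits are not separate results. Cycs rose by 0.40 ± 0.05, or 1.32-fold (limma adjusted p = 0.00382), and Uqcrc1 by 0.27 (limma adjusted p = 0.0190). Ndufb9 rose by 0.19 (limma adjusted p = 0.0344), and Ndufs3 also passed (limma adjusted p = 0.0260). Cycs kept its call in 7 of 7 other settings, and Uqcrc1 lost its call without GCN5+/- A1 (limma adjusted p = 0.0695) or GCN5+/- A2 (limma adjusted p = 0.0530). Ndufb9 lost its call without each of the line A arrays in turn (limma adjusted p = 0.0676 to 0.128), and Ndufs3 without GCN5+/- A1 (0.103), GCN5+/- A2 (0.0556) or GCN5-/- A1 (0.0759). The count of 4 became 1 without GCN5+/- A1 or A2, 2 without GCN5-/- A1 and 3 without GCN5-/- A2.

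More of these genes were called between the lines than between the genotypes, as held for all named genes (26.7% against 9.86%). The line calls went in both directions. In line B, 7 of 34 genes were higher and 4 lower than in line A by limma at an adjusted p under 0.05, and 23 were not called. The count of 11 was 4 without GCN5+/- B, 6 without GCN5+/- A1, 7 without GCN5-/- A2 and 8 to 10 without the other arrays. Among named genes 26.7% were called, 13.2% higher and 13.5% lower. Among those as bright 33.2% were called, near the share of the 34 genes. The median difference, line B minus line A, was 0.02, and single genes ran from -0.29 to 0.41. The median was -0.04 without GCN5+/- B, 0.12 without GCN5-/- B, 0.01 without GCN5+/- A2 and 0.04 without GCN5-/- A1, so it has no settled sign. Both line B arrays exceeded all 4 line A arrays in 11 genes, against 21.2% of named genes, and lay below them in 7, against 18.7%. Summed leukocyte markers were 10.21 to 10.62 in line A and 9.97 to 10.04 in line B, and of the 10 fibroblast markers 3 had called differences above 0 and 5 below 0, with a median difference of -0.15 and a range from -1.91 to 2.95. Their part in the line differences was not tested.

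Uqcrc1 had the largest line difference, 0.41 ± 0.07 or 1.33-fold higher in line B (limma adjusted p = 0.00417). Its partner core protein Uqcrc2 differed by -0.13 and was not called, and Uqcrh was lower by -0.19 ± 0.06 (limma adjusted p = 0.0479). Complex II had 2 genes higher, Sdhd by 0.29 ± 0.06 (limma adjusted p = 0.0109) and the flavoprotein Sdha by 0.19 ± 0.05 (limma adjusted p = 0.0399). Sdhd was not called without GCN5+/- B (limma adjusted p = 0.102), Sdha was called with 1 array left out only without GCN5+/- A2, and Uqcrh in none of the 6 such fits (limma adjusted p = 0.0523 to 0.173). The other tested probe sets of Sdha and Sdhd were not called for line (0.12 and 0.17, limma adjusted p = 0.210 and 0.433). The other Uqcrh probe set was called (-0.22, limma adjusted p = 0.0309). Sdhb and Sdhc differed by 0.01 and -0.07 and were not called. In complex I, 1 of 15 genes was called by its brightest probe set. That gene, the accessory subunit Ndufb3, read 11.51, 11.51 and 11.25 in controls and 11.66, 11.61 and 11.31 in GCN5-/- arrays, lower in line B by -0.29 ± 0.07 (limma adjusted p = 0.0196). Its call was kept only without GCN5+/- A2 or GCN5-/- A1, with limma adjusted p = 0.0507 to 0.108 without each of the others. For Ndufv1 the brightest probe set was not called (0.17, limma adjusted p = 0.0722). A dimmer Ndufv1 probe set was called, higher in line B by 0.23 (limma adjusted p = 0.0300), and another was not (0.19, limma adjusted p = 0.0871).

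Complex IV was split, with 2 genes higher and 2 lower in line B. Cox4i1 read 13.66, 13.66 and 14.00 in controls and 13.75, 13.71 and 13.99 in GCN5-/- arrays, a difference of 0.30 ± 0.04 (limma adjusted p = 0.00160). Cox5a read 13.55, 13.49 and 13.91 against 13.69, 13.67 and 13.82, a difference of 0.26 ± 0.06 (limma adjusted p = 0.0146). Both genes were higher in each line B array than in any line A array. Cox6c went the other way, with 14.23, 14.19 and 14.01 in controls and 14.31, 14.30 and 14.08 in GCN5-/-, a difference of -0.21 ± 0.03 (limma adjusted p = 0.00370). Cox5b was also lower, by -0.16 ± 0.04 (limma adjusted p = 0.0159). Cox7a2 differed by 0.02 and was not called. Without GCN5+/- B the Cox5a difference was 0.14, and the calls of Cox5a (limma adjusted p = 0.128) and Cox5b (limma adjusted p = 0.0732) were lost, and Cox5b also without GCN5+/- A1 (limma adjusted p = 0.0549).

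In complex V, 2 genes were higher in line B and 0 lower. Atp5a1 read 13.79, 13.87 and 14.08 in controls and 13.92, 13.93 and 14.08 in GCN5-/- arrays, a difference of 0.20 ± 0.04 (limma adjusted p = 0.0127). Atp5b, the catalytic partner of this alpha subunit, was higher by 0.14 ± 0.03 (limma adjusted p = 0.0228). Without GCN5+/- B neither was called (limma adjusted p = 0.103 for Atp5a1 and 0.0607 for Atp5b), and Atp5b was kept only without GCN5+/- A2. Across the other settings Uqcrc1 and Cox4i1 were called in 13 of 13 and Cox6c in 12, while Atp5b was called in 5 and Sdha and Uqcrh in 3. Among the 21 genes with several tested probe sets, all probe sets had the same sign of the line difference in 20 genes and of the genotype difference in 17.

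**Figure D3:**
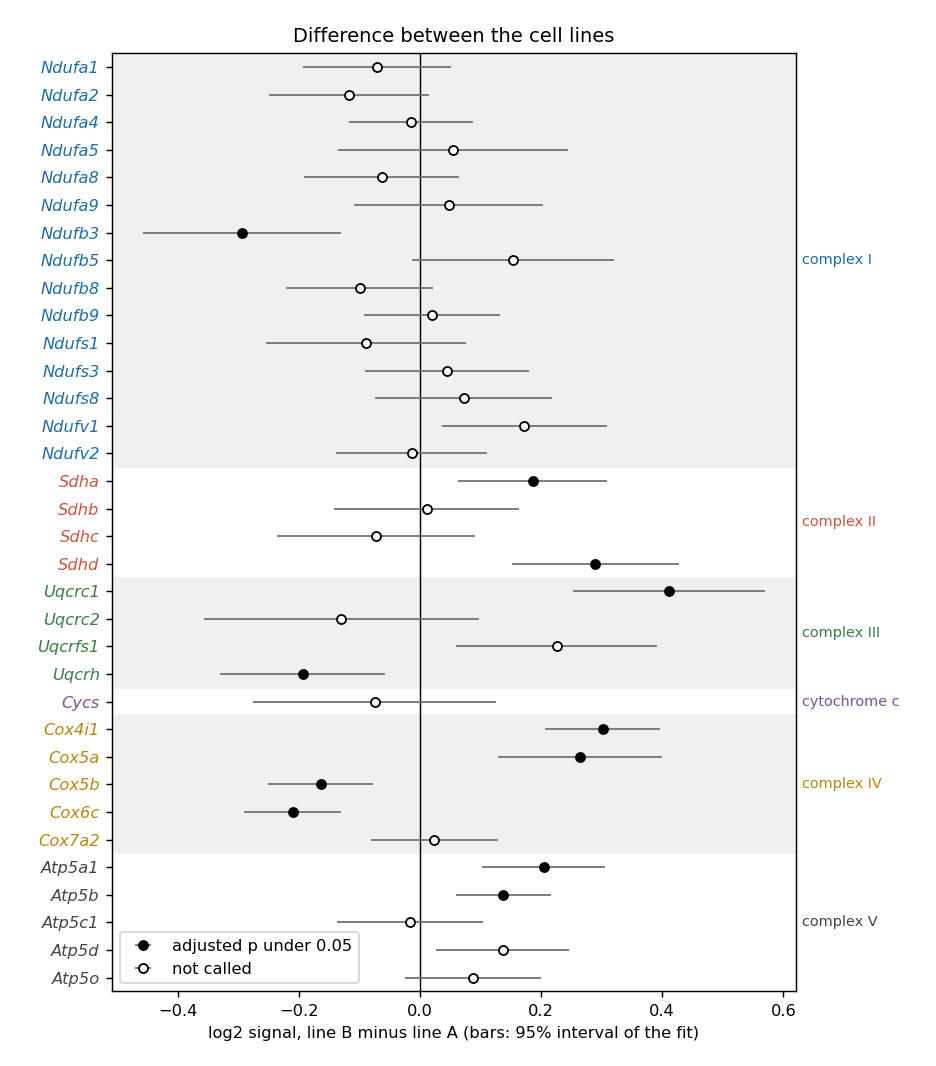
Log2 signal of line B minus line A (x axis) for the 34 genes (y axis), from the fit over 6 arrays, with bars for the 95% interval and filled points for an adjusted p under 0.05. Complex IV holds called genes on both sides of 0, from Cox4i1 at 0.30 to Cox6c at -0.21, and Uqcrc1 lies farthest from 0 at 0.41.

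The genes around the respiratory chain were read from 9 further lists. Of the 18 tested other complex I subunits, 1 rose with genotype and 0 fell, against the 9.86% called among named genes. It was Ndufa12, an accessory subunit, at 0.24 ± 0.06 (limma adjusted p = 0.0478), lost with the pairs as a block (limma adjusted p = 0.0673). By line, 2 of the 18 were higher and 4 lower in line B, with Ndufb7 higher by 0.36 (limma adjusted p = 0.00223) and Ndufa3 lower by -0.42 (limma adjusted p = 0.00549). Of the 21 tested other subunits of complexes III to V, 1 rose and 1 fell. Cox8a, a small complex IV subunit, rose by 0.16 ± 0.04 (limma adjusted p = 0.0325). Cox7a2l, which joins complexes III and IV in supercomplexes, fell by 0.38 ± 0.06 (limma adjusted p = 0.00717), with pair differences of -0.39, -0.37 and -0.38. By line, 0 of the 21 were higher in line B and 10 lower, against 13.2% and 13.5% of named genes, with Cox6b1 lower by -0.39 (limma adjusted p = 0.00209) and Uqcrq by -0.31 (limma adjusted p = 0.00609). Of the tissue or hypoxia isoforms, 3 of 8 were bright enough to test and 0 were called for genotype (Cox4i2 0.11, Ndufa4l2 -0.06 and Cox6a2 0.00, with 0 at an unadjusted p under 0.05).

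Among 38 tested assembly factors, 3 rose and 1 fell, a share near the 9.86% of named genes called. At an unadjusted p under 0.05, 15 were higher and 2 lower, where 13.6% of named genes were higher and 13.1% lower. The log2 change was above 0 in 27 of the 38, against 51.6%, with a median of 0.11. Every GCN5-/- array exceeded every GCN5+/- array in 10, against 9.49%, with the reverse in 1, against 8.74%. Cox18, which inserts a mitochondrially made subunit of complex IV into the membrane, rose by 0.60 ± 0.10 (limma adjusted p = 0.0140), with pair differences of 0.76, 0.74 and 0.30. Uqcc1, needed to build complex III, rose by 0.42 ± 0.09 (limma adjusted p = 0.0278), and Surf1, a complex IV factor, by 0.33 ± 0.07 (limma adjusted p = 0.0319). Sdhaf1, which helps load iron-sulfur clusters into Sdhb, fell by 0.38 ± 0.09 (limma adjusted p = 0.0416). By line, Atpaf2, a complex V factor, was higher in line B by 0.73 (limma adjusted p = 0.00140), and the complex IV copper chaperone Sco2 was lower by -0.64 (limma adjusted p = 0.00300).

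Of 12 genes for mitochondrial DNA maintenance and transcription, 1 rose and 0 fell, against 5.09% and 4.77% of named genes. In 11 of the 12 the log2 change was above 0, against 51.6%. Lrpprc, which stabilizes mitochondrial messenger RNAs, rose by 0.31 ± 0.07 (limma adjusted p = 0.0427). Of 13 tested nuclear regulators, 1 rose and 0 fell, with 6 changes above 0. That gene was the transcription factor Myc, up by 0.54 ± 0.09 (limma adjusted p = 0.0139). Ppargc1a, which encodes PGC-1alpha, lay below the brightness limit with a mean log2 signal of 6.04, and its pairs differed by -0.27, -0.97 and -0.72 with no test. Esrra, a nuclear receptor of respiratory genes, was lower in line B by -0.46 (limma adjusted p = 0.0163), and the PGC-1 family member Ppargc1b by -0.43 (limma adjusted p = 0.0381).

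In the TCA cycle and pyruvate dehydrogenase list, 0 of 17 genes rose and 1 fell with genotype, against 5.09% and 4.77% of named genes. The log2 change was above 0 in 14 of the 17, against 51.6% of named genes. At an unadjusted p under 0.05, 4 were higher and 1 lower, against 13.6% and 13.1%. Idh2, the mitochondrial NADP-dependent isocitrate dehydrogenase, fell by 0.40 ± 0.07 (limma adjusted p = 0.0110), with pair differences of -0.29, -0.37 and -0.55. By line, 8 of the 17 were higher and 1 lower in line B, against 13.2% and 13.5% of named genes. Idh3a, a subunit of the NAD-dependent enzyme, was higher by 0.44 (limma adjusted p = 0.00129) and Dlst, of the 2-oxoglutarate dehydrogenase complex, by 0.48 (limma adjusted p = 0.00364). Among 18 tested carriers, pores and import genes, 2 rose and 0 fell, against the same 5.09% and 4.77%. These were the import receptor Tomm22 at 0.28 ± 0.06 (limma adjusted p = 0.0230) and the ADP/ATP carrier Slc25a5 at 0.18 ± 0.04 (limma adjusted p = 0.0312). By line, 5 were higher and 2 lower in line B, with the outer membrane pore Vdac3 higher by 0.60 (limma adjusted p = 0.000179) and the import receptor Tomm20 by 0.33 (limma adjusted p = 0.00134).

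Mitochondrial ribosomal proteins serve translation of the subunits encoded in mitochondrial DNA. Of 76 such genes tested, 4 rose and 0 fell, against 5.09% and 4.77% of named genes. The log2 change was above 0 in 64 of the 76, against 51.6% of named genes. Mrps10 rose by 0.56 ± 0.09 (limma adjusted p = 0.0108) and Mrpl13 by 0.22 ± 0.05 (limma adjusted p = 0.0379). Mrpl24 and Mrpl32 rose by 0.30 and 0.33, and both calls were lost with the pairs as a block (limma adjusted p = 0.0529 and 0.0584). The change was more positive in line A than in line B for 73 of the 76, against 53.6% of named genes, and this count was also 73 with quantile normalization and with median centring. The median was 0.20 for pair A1, 0.16 for pair A2 and -0.08 for pair B. In the interaction fit 0 of the 76 were called and 20 had an unadjusted p under 0.05, against 9.64% of named genes. By line, 10 of the 76 were higher and 5 lower in line B, against 13.2% and 13.5% of named genes. Mrpl34 was higher by 0.54 (limma adjusted p = 0.00206) and Mrps17 lower by -0.39 (limma adjusted p = 0.00682).

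The genes of these lists called for genotype were also fitted without each of the 6 arrays in turn. None of these genotype calls held in all 6 fits. Cox7a2l was called in 5, with a highest limma adjusted p of 0.0503. Myc, Idh2 and Mrps10 were called in 4. Cox18, Surf1, Tomm22, Slc25a5, Cox8a, Ndufa12, Mrpl13, Mrpl24 and Mrpl32 were called in 2, and Uqcc1, Sdhaf1 and Lrpprc in 0. The line calls of these lists were not fitted in this way. With each array centred on its median the genotype calls of Ndufa12, Sdhaf1, Lrpprc, Mrpl13, Mrpl24 and Mrpl32 were lost, with limma adjusted p of 0.0552, 0.0590, 0.0622, 0.0606, 0.0524 and 0.0528.

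**Figure D4:**
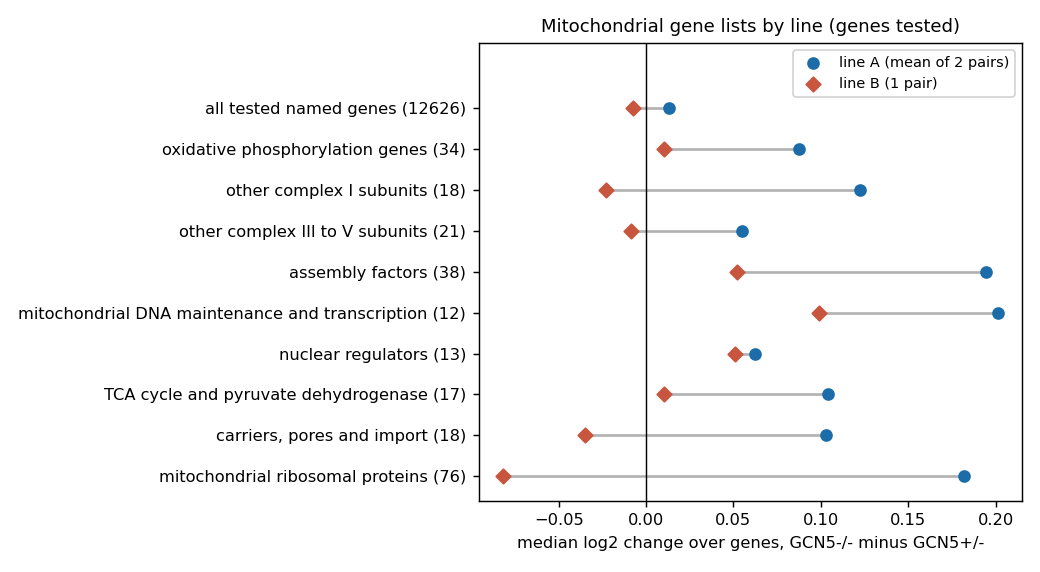
Median log2 change of GCN5-/- minus GCN5+/- (x axis) in line A (mean of 2 pairs) and in line B (1 pair) for all tested named genes, the 34 respiratory genes and 8 mitochondrial gene lists with the number of genes tested (y axis). The line A median lies above the line B median in each list shown, with the largest distance for the mitochondrial ribosomal proteins, 0.18 against -0.08.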

How the data were processed

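The 6 arrays were analysed from the deposited table of log2 signals, 1 value per probe set and array, with 64 control probe sets left out. The submitters' processing notes list MAS5 on 6 arrays and Partek on 1 and give neither a role. The log base is read from the range of the deposited values (3.13 to 15.2), and how the signals were normalized is not given in the sources used here. The 6 medians nearly coincide, so a shift common to most genes could have been removed. Of 45037 probe sets, 34945 name 1 gene in the platform annotation, 932 several and 9160 none. Symbols were updated through Entrez identifiers.

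Probe sets with a mean signal at or above the 40th percentile (6.80) were tested, 27022 in all. Differences were fitted with limma 3.58.1 in R 4.3.3 (lmFit, then eBayes with an intensity trend) on line and genotype, with 3 residual degrees of freedom, and with their product term, with 2. P-values were adjusted by Benjamini-Hochberg over all tested probe sets, and called means an adjusted p under 0.05. The Kat2a values are the exception and come from the same fit with no filter, adjusted over all 45037 probe sets. Standard errors and 95% intervals are limma's. The fits were tested on simulated data. Deviations of same-named arrays (A1, A2, B) from their group means correlated at 0.714, 0.727 and 0.846. Crossed line A arrays correlated at 0.509 (GCN5+/- A1 with GCN5-/- A2) and 0.443 (GCN5+/- A2 with GCN5-/- A1). The line difference enters all of these values, so the value for B does not bear on pairing beyond the line. The names were taken to pair the arrays, and a fit with the replicate block was run beside the others. No 2 arrays were copies, with at most 62 identical values between any pair. The number of arrays limits the precision.

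Alternatives changed the filter, the scaling, the intensity trend, the probe set rule, the line term and the arrays included. The 35 genes and the lists were chosen with earlier results of these data known. Values by array are given for genes called for genotype, those with the 6 smallest genotype p-values, the highest and lowest change of each complex and the 5 largest called line differences in each direction. From other lists up to 3 called genes per direction are named for genotype and up to 2 for line, and Mrpl32 was added after its values were seen. Probe sets with an _s_at or _x_at suffix, 19 of the 72, can also read related transcripts.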

Additional observations from a re-analysis of the deposited data

Results flagged for a closer look

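In 4 of the 9 mitochondrial gene lists the median difference between genotypes was above 0 in both pairs of line A and below 0 in the pair of line B. The difference was not tested for a list. The median difference of the changes, line B minus line A, was -0.14 for the other complex I subunits, -0.11 for the other subunits of complexes III to V, -0.15 for carriers, pores and import, and -0.24 for mitochondrial ribosomal proteins. Markers of other cell types were mixed. The 4 tested leukocyte markers had medians of 0.39, 0.15 and -0.01 in pairs A1, A2 and B, with 2 higher and 2 lower in pair B. The 1 tested endothelial marker, Kdr, had differences of 0.15, 0.28 and -0.25. The 3 tested epithelial markers had the opposite signs, with medians of -0.01, -0.22 and 0.05. The 2 tested muscle markers had medians above 0 in all 3 pairs (0.12, 0.02 and 0.10). Their part in the pattern was not tested.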

How the results depend on the processing

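The medians of the 34 genes for genotype, interaction and within line A moved by less than their spread in every setting run. The spread is the SD of the 3 pair medians, 0.0570, for genotype and interaction, and of the line A pair medians, 0.0247, within line A. Changing only the filter or the trend cannot move these medians. Of 3 settings run for the interaction, only quantile normalization could, and it gave -0.12 in place of -0.10. The median line difference, 0.02, ran from -0.04 without GCN5+/- B to 0.12 without GCN5-/- B. Without 1 line B array the fit gives the line difference within the other genotype. The spread used for this median, 0.11, is the SD of these same 2 medians. That the moves lie within it therefore shows no stability. The spread is larger than the median itself. Of the comparisons of single named genes with their main value, 273 kept direction and side of the threshold, 83 lost the call, 8 gained it and 2 reversed, both Uqcrc2 at 0.0413 without a line B array (range -0.16 to 0.0413 with 1 array left out). The count of the 34 genes called for genotype, 2, was 0 with no filter, with median centring, without the intensity trend, with averaged line A duplicates, with no line term, with the line taken as a random block and in the replicate block fit, and 0 to 4 with 1 array left out. The replicate block moved Ndufs3 to a limma adjusted p of 0.0619 and Atp5b to 0.0653, and of the other genes named by their genotype call it ended those of Ndufa12, Mrpl24 and Mrpl32. Over all probe sets the genotype count, 2299, was 709 with averaged duplicates, 69 with no line term, 532 with line as a random block and 645 to 2309 with 1 array left out. The line count of the 34, 11, was 3 without the trend, 3 with averaged duplicates and 4 to 10 with 1 array left out, and over all probe sets 6246 became 3025 to 5379. Without GCN5+/- B it was 3025. The interaction count over all probe sets, 13, was 27 with no filter, 4 with quantile normalization and 0 without the trend. Within line A the count of 4 was 1 to 3 with 1 array left out. The cause of these moves was not tested, beyond fewer arrays in the last kind of setting. No count of molecules limits these values, and dim genes have only their signal above background, which was not measured here.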
